A study of Mus musculus with 4 samples.

Results

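Cells of the fracture callus that met a rule for conventional dendritic cells were described in 2 single-cell RNA-Seq libraries, 1 from the callus of placebo-treated mice (control) and 1 from the callus of mice given the glucocorticoid (GC) prednisolone. The cells were chosen by their counts of unique molecular identifiers (UMIs, 1 per captured transcript). A barcode was kept when it held at least 500 UMIs, at least 200 genes and at most 10% mitochondrial UMIs, when the MHC class II genes H2-Aa, H2-Ab1, H2-Eb1 and Cd74 made up at least 1% of its UMIs, and when it held at least 1 UMI of the cytokine receptor Flt3. Against B cells and plasmacytoid dendritic cells the rule asked for 0 UMIs of Cd79a, Cd79b and Siglech, and against C1q-producing macrophages and chondrocytes for under 0.05% of C1qa, C1qb and C1qc and under 1% of Col2a1. This left 55 cells of the 14451 callus barcodes that passed the filters on UMIs, genes and mitochondrial share, 28 of 7133 in control and 27 of 7318 in GC. The whole series held 23216 such barcodes in 4 libraries. Since expression values chose the cells, the levels of these marker genes in them are a description and not a finding.

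The mice were 20-week-old C57BL/6J males. Per the labels they received a slow-release pellet of prednisolone at 6.25 mg/kg/d or of placebo, and callus was taken at week 2, while the methods of the study describe daily prednisolone injection for the fracture model. Both callus groups carried a fracture, and the whole callus was digested with enzymes before droplet capture, with no sort for dendritic cells. The other 2 libraries were from trabecular bone at week 2 of the same placebo or prednisolone treatment by pellet. How many mice entered a library is not given in the sources used here. With 1 library per treatment there is no replicate error and no test. Intervals are 95% intervals for counting error only (exact Poisson for levels, exact binomial for shares, exact conditional for ratios) and do not cover which cells were captured, and treatment cannot be told apart from any other difference between the libraries.

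Dendritic cells take up antigen, cut it into peptides and present these on MHC class II to CD4+ T cells. Conventional dendritic cells arise from bone marrow precursors that depend on Flt3 ligand, and they come as cDC1, which cross-present antigen on MHC class I and carry Xcr1 and Clec9a, and as cDC2, which carry Cd209a and Sirpa. On maturation both kinds take on Ccr7, the receptor that leads them to draining lymph nodes. Glucocorticoids act through the receptor Nr3c1, which raises genes such as Tsc22d3 and Fkbp5 and lowers many inflammatory genes in immune cells.

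H2-Aa, H2-Ab1 and H2-Eb1, which helped to choose the cells, lie in the H2 complex on chromosome 17, together with H2-Ob, which encodes a chain of H2-DO, a modulator of peptide loading. MHC class II promoters are known to share sequence elements. The proximal promoters of 3 of these genes are shown, H2-Aa and H2-Eb1 because their transcripts entered the rule, and H2-Ob as a gene of peptide loading. H2-Ob itself was not among the loading genes compared between the libraries below. Each line gives 72 bases 5′ to 3′ on the gene's strand (GRCm38.p6, RefSeq), with the letters TGATTGG, the form of the Y box motif that was searched for, in capitals.
H2-Aa: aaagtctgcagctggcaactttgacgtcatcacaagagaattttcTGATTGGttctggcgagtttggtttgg
H2-Eb1: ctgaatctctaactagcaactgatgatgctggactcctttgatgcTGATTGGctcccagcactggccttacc
H2-Ob: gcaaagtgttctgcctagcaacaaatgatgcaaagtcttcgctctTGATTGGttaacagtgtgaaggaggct
These stretches lie at chr17:34287847-34287918 (minus strand) for H2-Aa, and on the plus strand at chr17:34305761-34305832 for H2-Eb1 and chr17:34238801-34238872 for H2-Ob. The motif started 50, 61 and 59 bases before the RefSeq start of the gene, in this order. It was found in 7 of 9 promoter windows that matched 8 of 9 MHC class II genes searched, and on either strand in 2568 of 32851 promoters of the same length (7.82%). The windows reached from 250 bases before to 50 bases after each start. Both windows of H2-DMa lacked these letters, and the match is a description of the sequence, not a binding site.

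The 28 control and 27 GC cells made up 0.393% (0.261 to 0.567) and 0.369% (0.243 to 0.536) of the callus barcodes, a ratio of GC to control of 0.940 with an interval from 0.533 to 1.65. The shares thus overlapped, and this interval leaves a lower as well as a higher share possible. The callus libraries shared 12 barcodes past the filters, none of them a chosen cell. Depth was alike, with a median of 5491.5 UMIs per cell (range 1645 to 16164) in control and 4913 (746 to 17552) in GC, and with 166911 and 151495 UMIs in all. The median number of genes was 1786.5 and 1703, and the median mitochondrial share 2.10% and 2.73%. Levels are given as UMIs per 1000000 (CPM), and 3 UMIs, the floor for a gene with none, stood at 18.0 CPM in control and 19.8 CPM in GC.

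Flt3 set the size of the population. It was seen as 1 UMI in 21 cells of each library, as 2 UMIs in 7 control and 3 GC cells, and as 3 or more in 0 and 3 cells. A further 279 control and 266 GC cells met every other condition and held no Flt3 UMI, 3.91% and 3.63% of the barcodes. The chosen cells were thus outnumbered by MHC class II cells with no Flt3 UMI, and missed capture and absent expression cannot be told apart. At the MHC class II threshold, 3 control cells lay just outside at 0.573% to 0.684% and none in GC, while 3 control cells at 1.002% to 1.21% and 6 GC cells at 1.03% to 1.44% lay just inside. Within the cells, the median MHC class II share was 2.41% in control and 2.51% in GC. H2-Aa (chr17:34282744-34287823) stood at 5979 and 6449 CPM, H2-Ab1 (chr17:34257689-34269419) at 4937 and 4746, H2-Eb1 (chr17:34305867-34316674) at 4811 and 5393, and Cd74, the invariant chain, at 12965 and 10060.

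The label was carried by part of the cells, which are therefore called Flt3+ MHC class II cells from here on. The callus origin of the libraries was plain, since the cartilage collagen Col2a1 stood at 41895 CPM over all barcodes listed for control, empty droplets included. Cst3, the cysteine protease inhibitor that is abundant in dendritic cells, was seen in 26 of 28 control and 25 of 27 GC cells, at 4008 CPM (3710 to 4324) and 5426 CPM (5061 to 5810). These levels were above the 2966 and 1883 CPM of the cells with no Flt3 UMI and the 1686 and 1731 CPM of monocytes (Csf1r with Ly6c2 or Ccr2, low C1q). A single control cell held 199 of the 669 control Cst3 UMIs. Zbtb46, the transcription factor that defines conventional dendritic cells, was seen in 3 cells of each library, 10.7% (2.27 to 28.2) and 11.1% (2.35 to 29.2). Its share was 4.30% and 6.77% in the cells with no Flt3 UMI, 0.938% and 1.47% in monocytes, 6.25% and 0% in C1q macrophages and 1.24% and 0% in B cells, at median depths of 4170 and 3523, 5163 and 4161, 7606.5 and 5324, and 1996 and 1800 UMIs. Thinned to 1000 UMIs, Zbtb46 was left in 2 of 28 control and 0 of 26 GC cells, against 3 of 267 and 5 of 249 of the cells with no Flt3 UMI. The interval of 0 of 26 cells reaches 13.2%, so no order can be read from the thinned GC cells. Itgax, which encodes CD11c, was seen in 7 cells of each library. Summed over the shared dendritic cell list of 8 genes, levels were 4439 and 5862 CPM, against 3071 and 1978 in the cells with no Flt3 UMI, 1723 and 1762 in monocytes, 1644 and 1417 in C1q macrophages (C1q at least 0.1% with Csf1r) and 806 and 456 in B cells (at least 2 UMIs of Cd79a and Cd79b). The chosen cells held the highest level of this list in both libraries, but the list holds Flt3 (35 and 39 UMIs), which the rule demanded, and Cst3 made up most of it. The lead was also uneven among them, since by the clusters described later the list summed to 8768 CPM in 18 of the 55 cells, and to 3460 and 2380 CPM in the groups of 24 and 13.

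**Figure D1:**
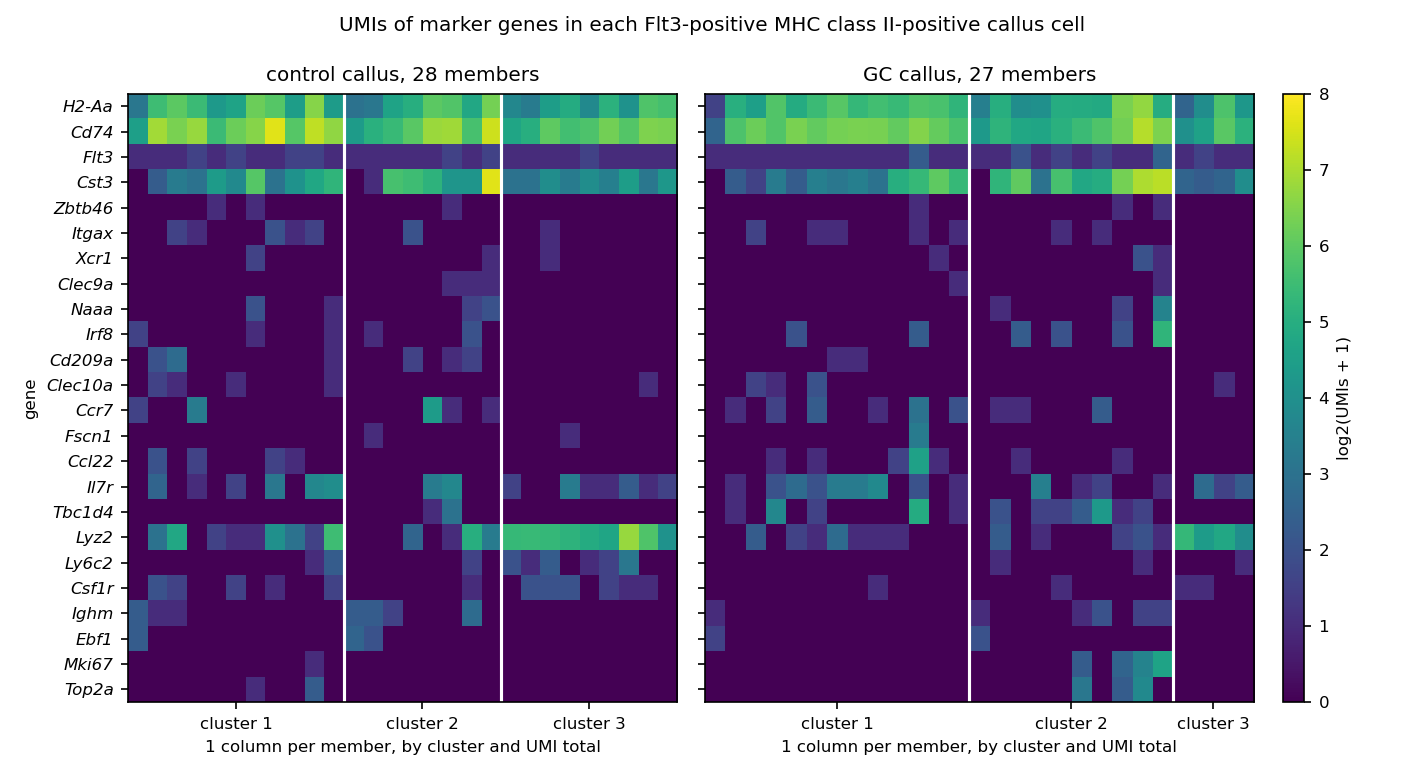
UMIs, as log2(UMIs + 1) by colour, of dendritic cell, monocyte, B cell and cell cycle genes (rows) in each of the 28 control and 27 GC callus cells that met the rule (columns, ordered by cluster and UMI total, with white lines between clusters). The MHC class II genes and Cst3 fill nearly all columns, while Zbtb46, Xcr1, Clec9a, Cd209a and Ccr7 appear in few of them and Lyz2 is concentrated in some cells.

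Markers of other cells were present in part of them. Lyz2, the lysozyme of monocytes and macrophages, was seen in 22 control and 16 GC cells, and it reached at least 0.1% of UMIs in 15 of 28 and 5 of 27. Those cells held 516 of the 539 control and 106 of the 127 GC Lyz2 UMIs. The most abundant B cell transcript, Ighm, had a UMI in 7 control and 6 GC cells, and 4 cells of each library held at least 3 UMIs of the B cell list. Among these 8 cells, 4 had no Cst3 UMI. C1qa, C1qb and C1qc were at 0 in every cell of both libraries, although the rule allowed a low share. T cell transcripts summed to 5.99 and 6.60 CPM, the level of 1 UMI, and mast cell and basophil transcripts were at 0. Of the 407 control and 428 GC barcodes with the highest scores against simulated doublets, 0 and 1 were among the chosen cells.

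Subset markers were sparse and rarely met in 1 cell. Xcr1 or Clec9a had a UMI in 5 of 28 control and 4 of 27 GC cells, Cd209a or the lectin Clec10a in 8 and 6, and the maturation genes Ccr7, Fscn1 (an actin bundler) or Ccl22 (a chemokine for CCR4-bearing T cells) in 10 and 12. None of the 3 sets was seen in 10 control and 9 GC cells, exactly 1 set in 14 and 14, 2 sets in 3 and 4, and all 3 sets in 1 and 0. Most cells therefore had UMIs of none or of 1 of the 3 sets. With markers this sparse, these counts cannot show whether a cell held a single state. Thinned to 1000 UMIs per cell, which leaves out 1 GC cell, the Xcr1 or Clec9a set was left in 1 of 28 and 1 of 26 cells, so the counts depend on depth. Ccr7 was seen in 5 and 9 cells, or 17.9% and 33.3%, against 20.1% and 19.9% of the cells with no Flt3 UMI, so it did not set the chosen cells apart. Xcr1 was seen in 3 cells of each library, 10.7% in control, against 2.50% and 2.20% of monocytes, and 4.66% and 3.01% of the cells with no Flt3 UMI. Thinned, it was left in 0 of 28 control and 1 of 26 GC cells, against 3 of 267 and 0 of 249 of the cells with no Flt3 UMI, so no order can be read from it.

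Clustering of the 55 cells, on variable genes without the stress, cycle and matrix genes, gave 3 clusters, each with cells of both libraries. Their leading genes define them and are no result. The first held 11 control and 13 GC cells and was led by Ccl5, Ccl22 and Mid1. The second held 8 and 10 cells and was led by Acot7 and Mef2c. It carried 6 cDC1 markers (Xcr1, Clec9a, Naaa, Ifi205, Wdfy4 and Irf8) at 2-fold or more over the others together with the B cell genes Ebf1, Ighm and Igkc. Xcr1 was not among them in a finer clustering or without the cell of high doublet score. A single cell of this cluster held 37 UMIs of Irf8 and 11 of Naaa, so these markers were not spread evenly over it. The third held 9 control and 4 GC cells and was led by genes that included Apoe and Thbs1, with 6 monocyte markers at 2-fold or more (Ly6c2, Plac8, F13a1, Fn1, Csf1r and Lyz2). The monocyte list summed to 12038 CPM in the third cluster and 2092 CPM in the others, against 9469 and 10334 CPM in the monocytes of control and GC. All 3 clusters were left without a cell type name. The third cluster was the one with more control than GC cells.

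Some transcripts lay to a large part in single cells. The chemokine Ccl5 was seen in 3 control and 4 GC cells, and 1 control cell held 82 of the 87 UMIs and 1 GC cell 43 of the 62. A GC cell of 17552 UMIs, the deepest of all, held 37 of the 54 GC UMIs of Irf8 (the transcription factor on which cDC1 depend), 24 of the 44 UMIs of Mki67 (the proliferation antigen Ki-67) and 53 of the 122 UMIs of Hmgb2 (a chromatin protein of dividing cells). Another GC cell, the one of high doublet score, held 23 of the 30 GC UMIs of Ccl22 and 29 of the 78 UMIs of Tbc1d4 (a regulator of Rab GTPases), with 7 Ccr7 and 9 Fscn1 UMIs. In control, 1 cell held 20 of the 33 Ccr7 UMIs.

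Genes led by the chosen cells over monocytes, C1q macrophages and B cells of the same library were ranked by the smaller of the 2 library ratios. Beside Flt3 and H2-Ab1, which the rule used, the 15 leading genes held Cst3, Samsn1, Cmtr1, Fam129a, Ccl5 and the following. Pkib, an inhibitor of protein kinase A, stood at 204 CPM in control and 172 CPM in GC, and Cytip, which acts in dendritic cell adhesion, at 1156 and 1228. Etv3, an ETS repressor, was at 737 and 416 CPM and Ramp3, a receptor-modifying protein, at 449 and 205. Map3k14, the NIK kinase of noncanonical NF-kB signalling, was at 222 and 244 CPM, and Tnip3, an inhibitor of NF-kB signalling, at 240 and 244. Il1r2, the decoy receptor for interleukin 1, stood at 174 and 139 CPM, and Ifitm1 at 240 and 198. Of the 15 genes, Flt3 and H2-Ab1 included, 13 were at least 2-fold over the highest of these 3 groups in both libraries, with Ccl5 and Cytip as the exceptions. The cells with no Flt3 UMI were not part of the ranking and shared many of these transcripts. In them Ramp3 stood at 192 CPM in control and 263 in GC, Etv3 at 441 and 420, Map3k14 at 183 and 156, and Cytip at 893 and 731. GC Ramp3 and Etv3 were thus no higher in the chosen cells. With all cells thinned to 1000 UMIs, Pkib and Fam129a no longer led the 3 groups in both libraries, with smaller log2 ratios of -0.17 and -0.46. Since the same cells chose the ranking, these values are a description.

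Il7r (chr15:9505788-9530176), the receptor chain shared by interleukin 7 and TSLP, was seen in 15 of 28 control and 16 of 27 GC cells, at 497 CPM (396 to 616) and 488 CPM (384 to 613). Its level in the cells with no Flt3 UMI was 451 and 660 CPM and in monocytes 301 and 514 CPM, against 10.4 and 2.89 CPM in B cells. The ratio of GC to control, 0.982 (0.708 to 1.36), spans 1, and the transcript was not limited to the chosen cells.

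**Figure D2:**
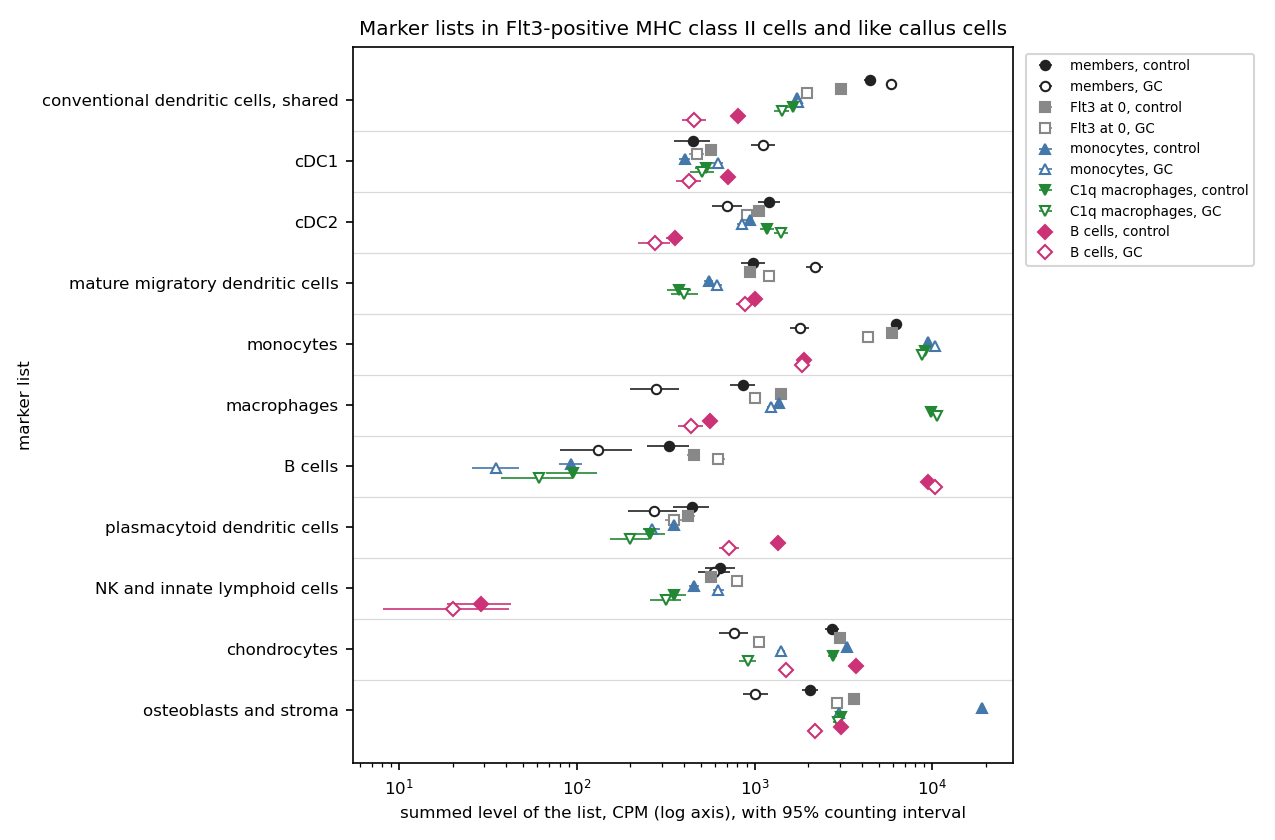
Summed level in CPM (log axis) of the marker lists of dendritic cell states and of other cell types in the chosen cells, in MHC class II-high cells with no Flt3 UMI, in monocytes, in C1q macrophages and in B cells, for control and GC callus. The shared dendritic cell list, which holds the Flt3 that the rule demanded, is highest in the chosen cells of both libraries, and the monocyte list of the chosen cells stands at 6273 CPM in control and 1789 CPM in GC.

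The libraries were then compared over genes to ask how the Flt3+ MHC class II cells of GC callus differed from those of control callus. These cells include 15 control and 5 GC cells with at least 0.1% Lyz2, and 4 cells of each library with at least 3 UMIs of the B cell list. Of 32285 genes, 910 had at least 50 UMIs over both libraries and were compared by the ratio of CPM, with 5 CPM added. They held 73.0% of control and 70.3% of GC UMIs. The median log2 ratio of GC over control was -0.10, with 399 genes higher and 511 lower in GC. At least 2-fold higher in GC were 38 genes (4.18%), and at least 2-fold lower were 92 (10.1%). The lower side was thus the larger. Every ratio below is of this kind, and a list is read beside these shares.

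**Figure D3:**
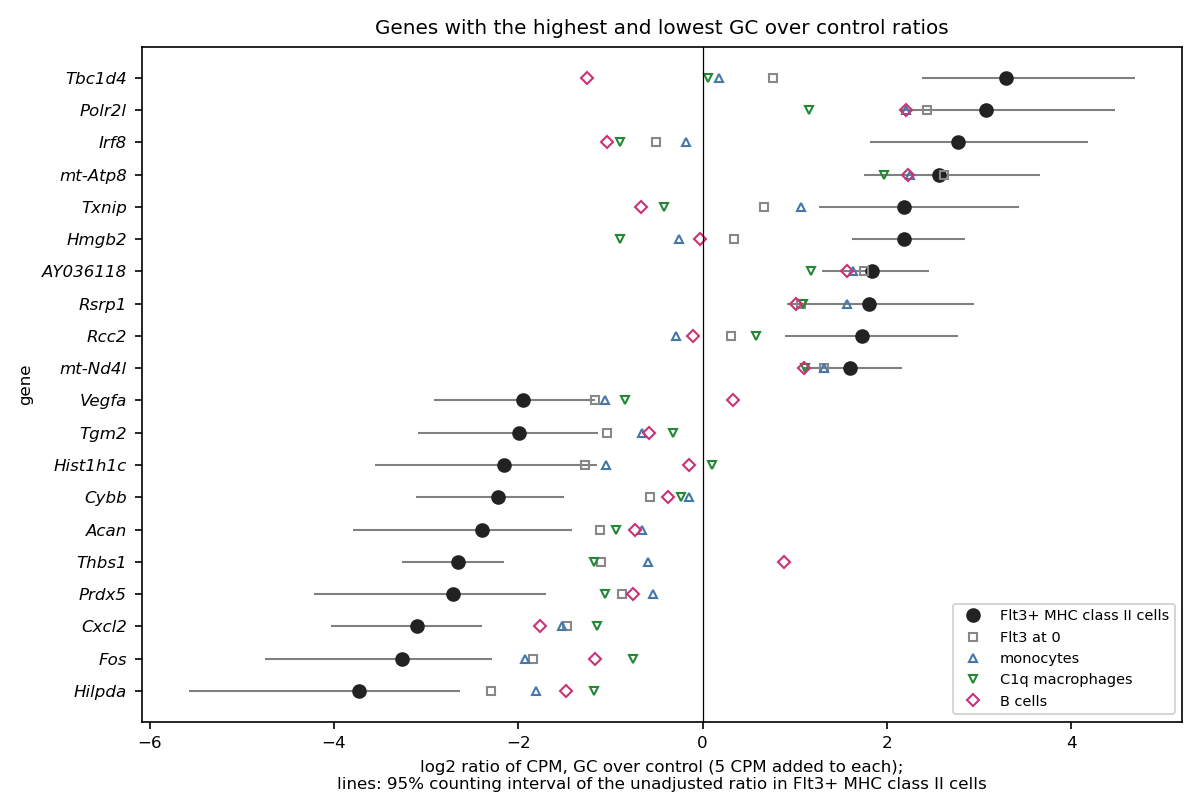
Log2 ratio of GC over control in the Flt3+ MHC class II cells for the 10 highest and 10 lowest genes, with the ratio in cells with no Flt3 UMI, monocytes, C1q macrophages and B cells of the same libraries. Polr2l and mt-Atp8 are high in every cell group, while Tbc1d4 and Irf8 are high in the Flt3+ MHC class II cells, at 3.30 and 2.77, and lie under 1 in the other groups.

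The 10 genes lowest in GC are given first. Hilpda (chr6:29272488-29275446), a lipid droplet protein induced by hypoxia, had 83 UMIs in 18 control cells and 5 UMIs in 4 GC cells, 497 CPM (396 to 616) against 33.0 CPM (10.7 to 77.0), a log2 ratio of -3.72. Fos (chr12:85473890-85477273), a subunit of the AP-1 factor, had 81 UMIs in 20 cells and 7 in 3, with a log2 ratio of -3.26. Both genes were seen in most control cells and in few GC cells. Cxcl2, a neutrophil chemoattractant, had 148 and 15 UMIs, with a log2 ratio of -3.10. Control cells of at least 0.1% Lyz2 held 95 and 38 of them, and the GC cell of high doublet score, which had no Lyz2 UMI, held 10. Among control cells under 0.1% Lyz2 none held more than 1, so a lower level in such cells was not seen. Thbs1, the matrix protein thrombospondin 1, had 234 and 33 UMIs in 11 and 5 cells (-2.66). Control cells of at least 0.1% Lyz2 held 92, 60 and 38 of these, and such a GC cell 22. No cell under 0.1% Lyz2 held more than 6. Cybb, the catalytic subunit of the phagocyte oxidase, had 90 and 17 UMIs (-2.22), the antioxidant enzyme Prdx5 55 and 7 (-2.71), the transglutaminase Tgm2 55 and 12 (-1.99) and the angiogenic factor Vegfa 66 and 15 (-1.94). The linker histone gene Hist1h1c, at 42 and 8 UMIs (-2.15), and the cartilage proteoglycan Acan, at 50 and 8 (-2.40), completed the 10 lowest. Most of these genes were also lower in GC in the other cells, though by less: Hilpda lay between -2.29 and -1.18 in the 4 other groups and Fos between -1.93 and -0.75, while Thbs1 was at 0.88 and Vegfa at 0.33 in B cells, and Hist1h1c at 0.10 in C1q macrophages. Whether the ratios of the Flt3+ MHC class II cells differ from those of the other cells was not tested.

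The genes highest in GC fell into those that were high in every cell group and those that were not. Polr2l (chr7:141471860-141475132), a small RNA polymerase subunit, had 8 UMIs in 4 control and 67 UMIs in 16 GC cells, a log2 ratio of 3.08, and lay between 1.15 and 2.43 in the other 4 groups. The mitochondrial genes mt-Atp8 (2.56) and mt-Nd4l (1.60), AY036118 (1.83) and Rsrp1 (1.81) were likewise higher in GC in all 4. Tbc1d4 (chr14:101442360-101609191) had 8 UMIs in 2 control and 78 UMIs in 12 GC cells, 47.9 CPM (20.7 to 94.4) against 515 CPM (407 to 643), a log2 ratio of 3.30. A single control cell held 7 of the 8 control UMIs. The ratio of 4.93 with the cell of most UMIs left out of each library thus rests on hardly any control UMIs, and it does not show a larger difference. In the other groups Tbc1d4 lay between -1.25 and 0.76. Txnip (chr3:96557957-96561883), the thioredoxin-binding protein that slows glucose uptake, had 10 UMIs in 8 control and 44 UMIs in 15 GC cells (2.19), with other groups between -0.67 and 1.06. Irf8 had 8 and 54 UMIs in 5 and 6 cells (2.77), Hmgb2 29 and 122 in 14 and 14 cells (2.18), and Rcc2, a regulator of mitosis, 14 and 44 in 10 and 15 cells (1.73). Without the cell of most UMIs in each library, Irf8 was at 1.87 and Hmgb2 at 1.71. Tbc1d4 and Txnip were seen in 12 and 15 GC cells and Irf8 in 6. GC cells with 29, 19 and 12 UMIs held most of the 78 Tbc1d4 UMIs. The cell with 29 was the GC cell of high doublet score, and the cell with 19 also held 4 UMIs of the B cell list. No GC cell held more than 9 of the 44 Txnip UMIs.

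**Figure D4:**
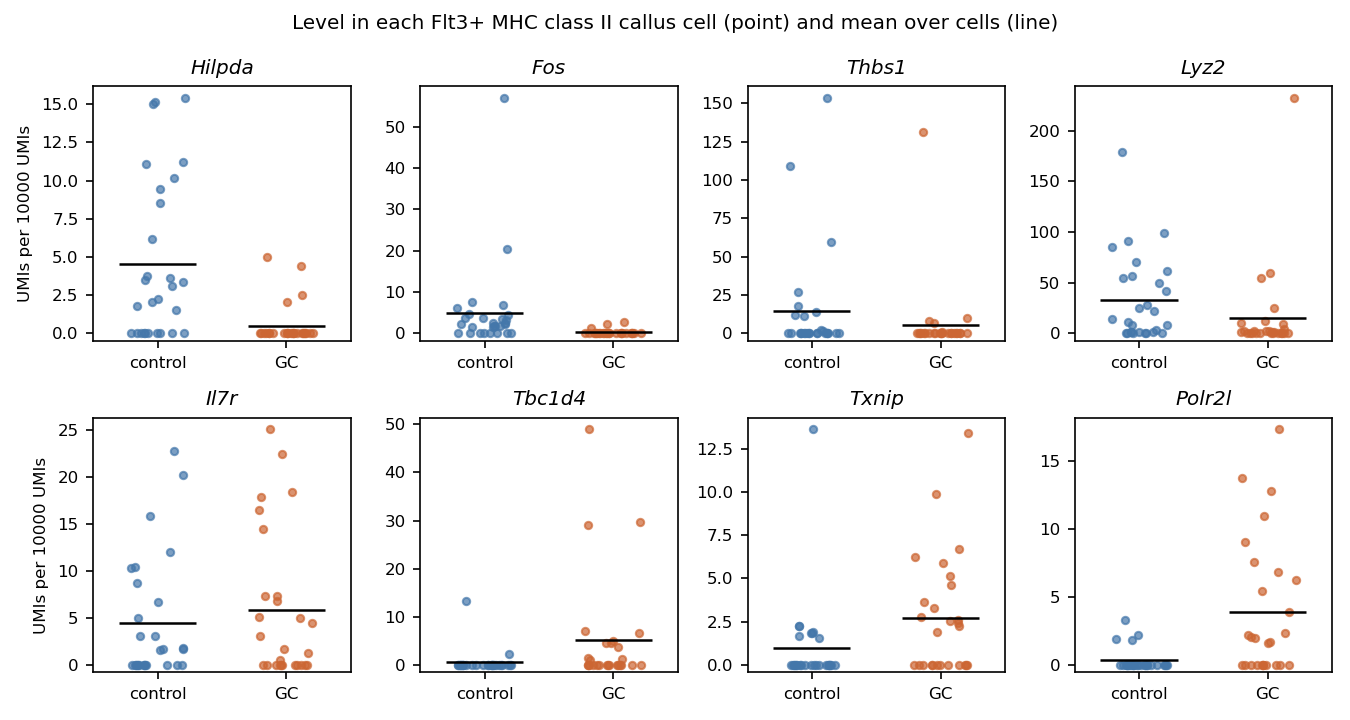
Level of 8 named genes, as UMIs per 10000 UMIs of the cell, in each control and GC Flt3+ MHC class II cell (points, linear axes), with the mean over cells as a line. Hilpda and Fos have UMIs in 18 and 20 control cells and in 4 and 3 GC cells, and Tbc1d4 in 2 control and 12 GC cells.

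Among dendritic cell state genes, the cDC1 list summed to 449 CPM (353 to 563) in control and 1116 CPM (954 to 1297) in GC. Irf8 was its single gene with 50 UMIs, and below that limit Wdfy4, which is needed for cross-presentation, had 15 and 28 UMIs, Cd24a 12 and 26, Naaa 9 and 14, Cadm1 10 and 7 and Clec9a 3 and 2. A single GC cell held 11 of the 14 GC Naaa UMIs. An Irf8 UMI was seen in 5 control and 6 GC cells, and a difference in this number was not tested. The cDC2 list stood at 1204 CPM (1044 to 1383) and 700 CPM (573 to 846), and of its 3 compared genes 1 was higher and 2 lower, 1 of them 2-fold (median -0.87). The inhibitory receptor Cd300a had 45 and 16 UMIs (-1.31), the transcription factor Klf4 43 and 21 (-0.87) and Tnip3 40 and 37 (0.03). Over the alternatives the cDC2 median ran from -1.53 to -0.08 and Cd300a from -1.48 to -0.48, so its 2-fold call depends on the setting. The mature migratory list stood at 977 CPM (832 to 1139) and 2172 CPM (1943 to 2420), with 4 of 5 compared genes higher, 2 of them 2-fold (median 0.71). Tbc1d4 was at 3.30, Marcksl1 at 1.37, Samsn1 at 0.71, Tmem123 at 0.50 and Ccr7 at -0.31. Without the cell of most UMIs in each library, Tmem123 was at -0.06 and Ccr7 at 0.52, so neither has a firm direction. Without the 1 GC cell of high doublet score, 4 genes of the list could be compared and their median was -0.06, with Tbc1d4 at 2.69, Samsn1 at 0.30, Tmem123 at -0.42 and Ccr7 at -0.74. The list thus had no single direction without that cell.

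Of 5 genes that load peptide onto MHC class II, 1 was higher and 4 lower in GC, 2 of them 2-fold (median -0.77). Over the alternatives this median ran from -0.93 to -0.31. Of the 2-fold genes, Ctss ran from -1.22 to -0.31 and H2-DMb1 from -2.03 to -1.14. Of the genes the rule used, H2-Aa had a log2 ratio of 0.11, H2-Eb1 of 0.16, H2-Ab1 of -0.06 and Cd74 of -0.37, which is a description, since these genes chose the cells. H2-DMb1, a chain of the peptide exchange factor H2-DM, had 47 UMIs in 20 control and 15 UMIs in 5 GC cells, 282 CPM (207 to 374) against 99.0 CPM (55.4 to 163), a log2 ratio of -1.46. Ctss, the cathepsin that trims the invariant chain, had 167 and 75 UMIs in 25 and 23 cells, 1001 CPM (855 to 1164) against 495 CPM (389 to 621), a log2 ratio of -1.01. H2-DMa (-0.49) and the lysosomal protease Lgmn (-0.77) were lower and the thiol reductase Ifi30 was at 0.10. In the other groups H2-DMb1 was also lower, between -1.10 and -0.65, while Ctss lay between -0.30 and 0.63. The summed loading list stood at 2600 and 1762 CPM in the Flt3+ MHC class II cells, 2660 and 2162 in the cells with no Flt3 UMI, 2176 and 2181 in monocytes, 3993 and 5014 in C1q macrophages and 1682 and 1158 in B cells. In the MHC class I list, 3 of 7 genes were higher and 4 lower, none of them 2-fold (median -0.15), with H2-K1 at -0.58, H2-D1 at -0.40, B2m at -0.27 and the loading factor Tapbp at 0.52.

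Costimulation genes were lower in GC in all 3 that could be compared (median -0.78). Over the alternatives this median ran from -1.06 to -0.029, so the size of the difference depends on the setting. Cd83, which keeps MHC class II on the surface, had 117 UMIs in 26 control and 50 UMIs in 15 GC cells, 701 CPM (580 to 840) against 330 CPM (245 to 435), a log2 ratio of -1.08. Cd86, a ligand of CD28, had 61 and 32 UMIs (-0.78), and the checkpoint receptor Havcr2 76 and 59 (-0.22). Below the limit of 50 UMIs, Cd80, the other ligand of CD28, had 10 UMIs in control and 18 in GC, and Cd274, which encodes PD-L1, had 27 and 14. Icosl, also below this limit, had 2 UMIs in 2 control cells and 11 UMIs in 8 GC cells. Its CPM ratio was 6.06, with an interval from 1.32 to 56.3. Cd83 lay between -0.87 and -0.13 in the other groups. The summed list was 1881 and 1399 CPM in the Flt3+ MHC class II cells, 1565 and 1394 in the cells with no Flt3 UMI, 970 and 1053 in monocytes, 639 and 581 in C1q macrophages and 929 and 864 in B cells.

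Of 5 cytokine and chemokine genes, 1 was higher and 4 lower in GC, 2 of them 2-fold (median -0.38). Il1b, the inflammasome cytokine interleukin 1 beta, had 203 UMIs in 17 control and 88 UMIs in 7 GC cells, 1216 CPM (1055 to 1396) against 581 CPM (466 to 716), a log2 ratio of -1.06, and a single GC cell held 59 of the 88. Without the cell of most UMIs in each library the ratio was -2.23, and the number of cells with Il1b was lower in GC. Il1b was lower in GC in the other groups too, at -1.51 in the cells with no Flt3 UMI, -1.30 in monocytes, -1.50 in C1q macrophages and -2.96 in B cells. With the cells of at least 0.1% Lyz2 left out, 3 cytokine and chemokine genes could be compared and their median was 0.49. Ccl5 had 87 and 62 UMIs (-0.35), but 1.90 without the cell of most UMIs in each library. Cxcl16, a membrane-bound chemokine, had 55 and 78 UMIs (0.64), and Tgfb1, a signal of the study that is made by many immune cells, 59 and 41 (-0.38). The monocyte chemokines Ccl6, at 25 and 2 UMIs, and Ccl9, at 26 and 4, had under 50 UMIs in all. App, the other of the study's signals with 50 UMIs, had 43 UMIs in control and 28 in GC (-0.47).

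Among receptors, 2 of 9 genes were higher and 7 lower, none of them 2-fold (median -0.21). Csf2rb, the signalling chain for GM-CSF, was seen in 24 of 28 and 23 of 27 cells, with 181 and 127 UMIs (-0.37). The chemokine receptors Cxcr4 (70 and 55 UMIs, -0.21) and Ccr2 (45 and 25, -0.69) and the interferon receptor chain Ifnar1 (24 and 38, 0.78) lay on both sides of 0. Csf1r, the receptor of the macrophage growth factor Csf1, had 24 UMIs in 12 control cells and 4 UMIs in 4 GC cells. Of the pattern recognition genes, the coreceptor Cd14 was the single gene compared, with 62 and 29 UMIs (-0.94). Of the interferon-stimulated genes, Ifi27l2a was the single one, with 106 UMIs in 19 and 42 UMIs in 10 cells (-1.18). No gene of the fatty acid list reached 50 UMIs, Plin2, a lipid droplet coat protein, being nearest with 39 and 10.

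Genes known to respond to glucocorticoids were not higher as a group in the GC library. Of 9 compared, 1 was higher and 8 lower, with 1 in each direction 2-fold (median -0.61). The gene higher was Txnip. Tsc22d3, which encodes GILZ, had 7 UMIs in control and 4 in GC, and Fkbp5, a cochaperone of the glucocorticoid receptor, had 1 and 7 UMIs, a CPM ratio of 7.71 with an interval from 0.991 to 348, and it was higher in GC in the other groups, at log2 ratios between 0.78 and 1.53. Zfp36l2, an RNA-binding protein that promotes mRNA decay, had 124 and 39 UMIs (-1.51), and the phosphatase Dusp1 91 and 54 (-0.61). Over the alternatives Dusp1 ran from -0.87 to 0.45 and Mt1 from -0.84 to 0.16, so neither has a firm direction. Mt1, a metallothionein, was at -0.64, Sgk1, a kinase, at -0.75, the mRNA decay factor Zfp36 at -0.70 and Nfkbia, the NF-kB inhibitor, at 0.00. Dusp1 and Zfp36 also belong to the immediate early response. In summed level the list was 4350 and 3221 CPM in the Flt3+ MHC class II cells, 4896 and 4099 in the cells with no Flt3 UMI, 5126 and 4706 in monocytes, 5105 and 5835 in C1q macrophages and 2810 and 2192 in B cells. The receptor Nr3c1 had 8 and 11 UMIs. Its chaperones Hsp90ab1 (116 and 170 UMIs, 0.69) and Hsp90aa1 (48 and 53, 0.28) were at or above control level, and the receptor and activation list stood at 2 higher and 1 lower of 3.

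Immediate early genes, which tissue digestion is known to induce, were lower in GC in all 9 compared, 6 of them 2-fold (median -1.16). Beside Fos these were Btg2 at 89 and 22 UMIs (-1.84), Ier3 at 84 and 21 (-1.82), Atf3 at 82 and 22 (-1.72), Jund at 60 and 24 (-1.16), Jun at 52 and 21 (-1.14), and, under 2-fold, Junb at 156 and 83 (-0.77). The summed list stood at 4931 and 2092 CPM in the Flt3+ MHC class II cells, 4831 and 2210 in the cells with no Flt3 UMI, 5102 and 2903 in monocytes, 4807 and 3972 in C1q macrophages and 4644 and 2674 in B cells. The summed level was thus lower in GC in each of these cell groups, though not that of every gene, since Atf3 was at 0.58 in B cells. Over all barcodes past the filters, Btg2 was at -0.44, Fos at -0.35 and Atf3 at 0.07. With the cells of at least 0.1% Lyz2 left out, 15 of 28 in control and 5 of 27 in GC, 2 genes of the list could be compared and their median was -0.27.

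Cell cycle genes were few. Of 3 compared, 2 were at least 2-fold higher (Hmgb2 and Tubb5, the latter at 25 and 53 UMIs, a CPM ratio of 2.34) and Cenpa was 2-fold lower at 114 and 43 (-1.25). Mki67 had 1 UMI in 1 control cell and 44 UMIs in 4 GC cells, a CPM ratio of 48.5 with an interval from 8.26 to 1958, and Top2a 5 and 25 UMIs in 2 and 3 cells. The summed list stood at 1336 CPM in control and 2607 CPM in GC. In the cells with no Flt3 UMI it was lower in GC, at 1009 and 861 CPM. It was also lower in monocytes (1649 and 1068), C1q macrophages (2492 and 1602) and B cells (1418 and 1227). The 4 GC cells with Mki67 held 53, 25, 14 and 11 of the 122 GC Hmgb2 UMIs, and 1 of them held 24 of the 44 Mki67 UMIs. The higher GC sum thus drew in part on these few cells. Below the limit of 50 UMIs, Birc5 had 3 and 12 UMIs, Ccnb2 0 and 8 and Cdk1 0 and 6, and Cenpa was the single compared gene that was lower.

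Markers of other cells differed between the libraries too, and these values stand beside each result above. The monocyte list was 6273 CPM (5899 to 6665) in control and 1789 CPM (1582 to 2015) in GC, with 4 of 4 compared genes lower, 3 of them 2-fold (median -1.80). In the cells with no Flt3 UMI it was 5910 and 4355 CPM, and in monocytes 9469 and 10334. Lyz2 (chr10:117277331-117282321), its most abundant gene, stood at 3229 CPM (2962 to 3514) and 838 CPM (699 to 997) in the Flt3+ MHC class II cells, and Plac8 had 292 and 81 UMIs. The macrophage list was 857 and 277 CPM, its most abundant gene Apoe having 114 and 32 UMIs in 9 and 4 cells, with C1qa, C1qb and C1qc at 0. The B cell list was 330 and 132 CPM, with Cd79a and Cd79b at 0 by the rule. The plasmacytoid list was 443 and 271 CPM, the NK and innate lymphoid list 641 and 594, the progenitor list 132 and 211, the neutrophil list 108 and 317, the erythroid list 89.9 and 264, the osteoclast list 47.9 and 33.0 and the endothelial list 35.9 and 13.2 CPM. The neutrophil transcripts were seen in 13 control cells and 7 GC cells, of which 1 GC cell held 3 or more UMIs of the list. In the first cluster the list stood at 378 CPM, and at 78.5 CPM when clustered without the GC cell of high doublet score. The higher GC level of this list thus rested on 1 cell. With the cells of at least 0.1% Lyz2 left out of both libraries, the monocyte list had 1 gene compared, at -0.90, and 43 genes were 2-fold lower against 21 higher. The part of monocyte transcripts in the other differences was not tested beyond this.

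Cartilage and stroma transcripts, which other cells of the callus make, were also lower in the Flt3+ MHC class II cells of GC. The chondrocyte list stood at 2726 and 766 CPM in the Flt3+ MHC class II cells, with 3 of 3 genes 2-fold lower (median -1.74), and its most abundant gene Col2a1 had 249 UMIs in 28 control and 67 UMIs in 24 GC cells. The same list was at 3009 and 1058 CPM in the cells with no Flt3 UMI, 3307 and 1407 in monocytes, 2747 and 913 in C1q macrophages and 3721 and 1505 in B cells. The stroma list stood at 2049 and 1010 CPM, with 5 of 5 genes lower, 2 of them 2-fold (median -0.90). Over all barcodes past the filters the stroma gene Col1a1 was higher in GC, at a log2 ratio of 0.85. All cell groups thus carried the chondrocyte transcripts and less of them in GC, while the stroma list of control monocytes stood apart at 19074 CPM. In control barcodes under 100 UMIs, which hold mostly free RNA, Col2a1 stood at 27968 CPM. Such barcodes are not listed for GC. The profile of all listed barcodes, cells included, was subtracted from the Flt3+ MHC class II cells of each library until no Col2a1 was left. After this, 39 genes were 2-fold higher and 94 lower in GC, and the medians of the immediate early and monocyte lists were -1.16 and -1.85. Col2a1 stood at 41895 CPM in control and 27680 CPM in GC in that profile, against 1492 and 442 CPM in these cells. The subtraction thus removed little and could hardly move these medians.

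**Figure D5:**
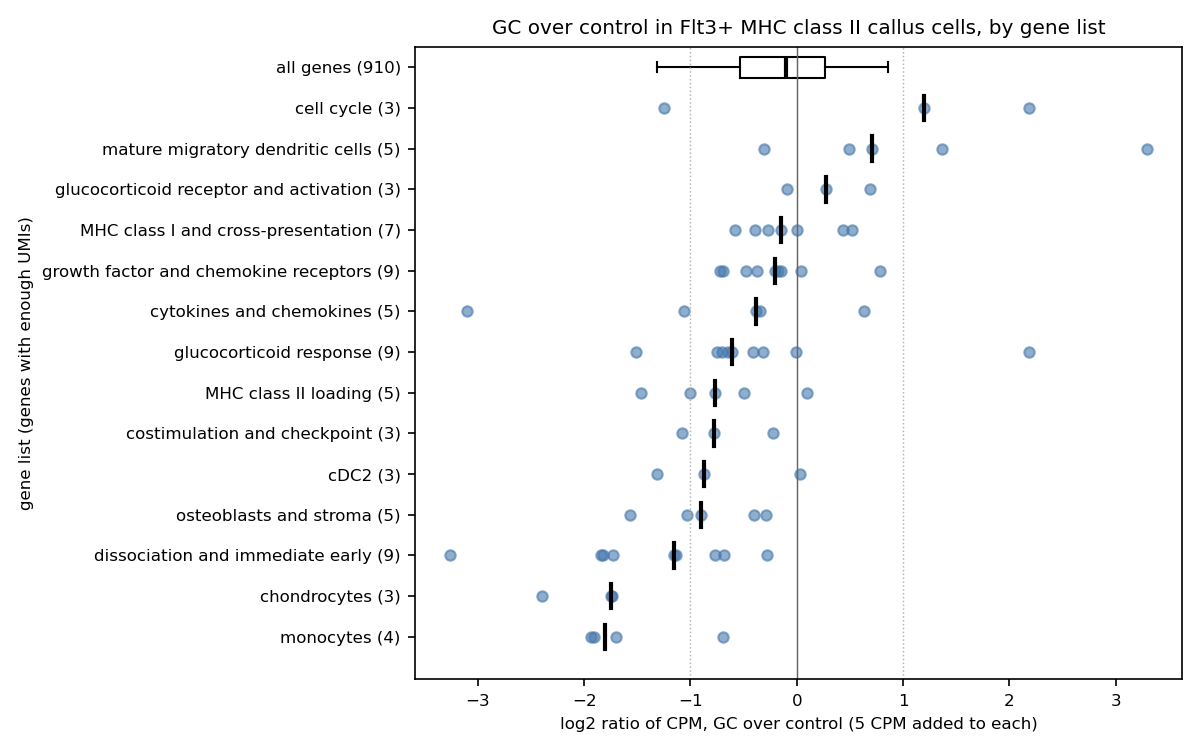
Log2 ratio of GC over control for each compared gene (points) of the gene lists and the list median (bar) in the Flt3+ MHC class II cells, with 0 and the 2-fold limits marked. The immediate early, monocyte and chondrocyte lists lie at medians of -1.16, -1.80 and -1.74, and the mature migratory list at 0.71.

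Outside the callus the same rule found 1 cell of 3977 barcodes in control trabecular bone (0.0251%, 0.000637 to 0.140) and 6 of 4788 in GC trabecular bone (0.125%, 0.0460 to 0.273). Both libraries lay below the callus, where such cells made up 0.393% and 0.369%, though the interval of the GC trabecular share overlaps that of the callus. These trabecular cells were too few for a comparison of genes.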

How the data were processed

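The authors deposited UMI counts per gene and barcode made with Cell Ranger (5.0.1 in the submitters' processing notes, but 4.0.0 per the header of the GC callus matrix and 4 per the headers of the others) on mm10; their notes also name Seurat 3.2.0. The GC callus matrix lists 7762 barcodes already called as cells and the other matrices 6794880 each, so free RNA in empty droplets could be read in the latter only. Counts were used as deposited. UMIs were summed per library and divided by all UMIs of those cells (CPM). Doublet scores came from simulated pairs, and no cell was removed on them. Clusters used leidenalg 0.10.2 and igraph 0.11.9, and intervals scipy 1.17.1. Scripts were tested on simulated data. Members and lists were chosen with earlier results of these data known, and the TGATTGG motif after values were seen. Named genes were those of the gene lists, the 10 highest and 10 lowest ratios among genes of at least 50 CPM in 1 library and 50 UMIs over both, and the 15 leading genes of at least 100 CPM. Gene positions are from GENCODE M21 (GRCm38). Alternatives dropped or tightened Flt3, MHC class II, UMI and fold limits, left out Lyz2-high, B-list or doublet-scored cells, subtracted the profile of all listed barcodes, thinned cells to 1000 UMIs or centred the ratios. Some genes of the lists are not reported here.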

Additional observations from a re-analysis of the deposited data

Results flagged for a closer look

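The share of barcodes that met the dendritic cell rule was compared between GC and control in both tissues. The ratio was 0.940 in callus and 4.98 in trabecular bone, where the interval ran from 0.605 to 229 and the counts were 6 and 1 cells. The ratios lie on opposite sides of 1, with 1 library in each of the 4 groups. The difference between the tissues was not tested, and the trabecular interval spans the callus value.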

How the results depend on the processing

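No paired analysis was possible because each treatment had 1 library and the labels give no replicate numbers that pair them. Leaving out a replicate was not possible for the same reason. Without the Flt3 condition the shares were 4.30% in control and 4.004% in GC, with at least 2 Flt3 UMIs 0.0981% and 0.0820%, and with an MHC class II share of at least 2% the GC share was 0.205%. The counts of genes 2-fold higher and lower were 95 and 141 without Flt3, 6 and 29 with 2 Flt3 UMIs, 16 and 41 at 2% MHC class II, 21 and 43 without Lyz2-high cells, 2 and 9 after thinning, 165 and 216 at 20 UMIs, 13 and 47 at 100 UMIs, and 116 and 210 at 1.5-fold, with 23 higher without cells of the B cell list. The higher share of both was 29.2%, and it was 36.2% centred on the median, 43.3% at 20 UMIs, 40.3% without Flt3, 17.1% with 2 Flt3 UMIs and 18.2% thinned. Of 14 lists 11 had a median under 0, and 6 of 7 after thinning. Thinned subset shares were 3.57% and 3.85% for Xcr1 or Clec9a, 10.7% in control for Cd209a or Clec10a, and 14.3% and 19.2% for Ccr7, Fscn1 or Ccl22. Col1a1 (1.05) and Tubb5 (-0.25) reversed without the Flt3 condition, and Pkib (-0.17) and Fam129a (-0.46), as leading genes, after thinning; the cause was not tested. Genes 2-fold apart kept their direction in 744 of 746 values, but not all stayed 2-fold apart in every setting. The log2 ratio nearest 0 was 0.32 for Irf8, 0.83 for Txnip, 0.73 for Hmgb2 and 0.65 for Rcc2. It was -0.63 for Thbs1, -0.70 for Cybb, -0.48 for Cd300a and -0.31 for Ctss, and other genes moved likewise. Hilpda, Fos, Tbc1d4 and Polr2l stayed past 2-fold wherever they could be compared. The settings without Lyz2-high cells, without B-list cells or without the cell of most UMIs were chosen after seeing the data. Few cells and 1 library per treatment limit every value.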
